A study of Mus musculus with 6 samples.

Results

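The T cell receptor complex and the signalling molecules nearest to it were examined as 10 genes: Cd3d, Cd3e, Cd3g, Cd247, Cd4, Cd8a, Cd8b1, Lck, Zap70 and Lat. Every array probe whose accession a RefSeq table pairs with 1 of these symbols was kept, which gave 12 probes for 9 of the 10 genes, among 41006 probes and 37048 genes tested. Of these 37048, 12235 had a symbol, and the others were counted by accession or probe name. No probe was paired with Cd8a, so its level is not analysed here. The samples were mesenteric lymph nodes of naive adult mice of 2 knockout genotypes, labelled TB-TNF KO double (3 arrays) and B-TNF KO (3 arrays). The strain names and the series title concern TNF made by T cells and B cells, so both genotypes share the B cell label and the T cell label is the difference between them. The mice carry gene knockouts, and the Cre driver or other means that limits the deletion to a cell type is not given in the sources used here. Each sample pooled the nodes of 3 mice, and no wild-type sample was analysed here. Node RNA was labelled with Cy3 and hybridised together with Cy5-labelled RNA of the Universal Mouse Reference Cell Line Pool, made from 11 cell lines, among them a B-lymphocyte and a thymic T-lymphocyte line. Every value below is therefore a log2 ratio of node over reference unless an intensity is named.

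As background, the T cell receptor recognises peptide bound to MHC molecules but has no signalling domain of its own, and it relies on the CD3 chains and the zeta chain that travel with it. These chains carry immunoreceptor tyrosine-based activation motifs, ITAMs, in which a tyrosine is followed at a fixed distance by leucine or isoleucine and the unit is repeated. The kinase Lck, held near the receptor by the coreceptors CD4 and CD8, phosphorylates ITAMs. Zap70 then docks on them and phosphorylates the membrane adaptor Lat, on which further signalling proteins assemble. In a lymph node these genes are expressed mainly by the resident and recirculating T cells.

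The probes of the chains and of the 2 signalling proteins downstream show which stretches of message were read, and several fall on the signalling motifs themselves. Each is 60 bases long, is printed 5′ to 3′ as the scanner files give it, and comes from the array design and not from a mouse of the study. Capitals mark codons of the ITAM in Cd3d and Cd247 and, in Lat, a tyrosine codon, any codon and an asparagine codon, the form that SH2 domains of the Grb2 family bind when the tyrosine is phosphorylated.
Cd3d (chromosome 9): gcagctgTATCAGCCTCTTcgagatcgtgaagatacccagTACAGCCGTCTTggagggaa
Cd3g (chromosome 9): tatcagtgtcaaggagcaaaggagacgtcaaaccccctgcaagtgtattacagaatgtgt
Cd247 (chromosome 1): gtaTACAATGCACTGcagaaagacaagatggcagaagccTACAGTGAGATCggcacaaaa
Zap70 (chromosome 1): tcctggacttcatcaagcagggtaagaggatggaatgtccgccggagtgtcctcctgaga
Lat, second probe (chromosome 7): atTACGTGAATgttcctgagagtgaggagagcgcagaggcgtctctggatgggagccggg

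The ITAM was searched as TAT or TAC, any 2 codons and a leucine codon (CTN, TTA or TTG) or isoleucine codon (ATT, ATC or ATA), repeated after 6 to 8 codons, in a reading frame of the printed strand without a stop codon. The Cd3d probe held 7 codons between its repeats and the Cd247 probe 8. The pattern occurred in 32 of 41006 probes (0.078%). The shorter Lat pattern, TAT or TAC, NNN, AAT or AAC, was more common, in 2.56% of probes. All 12 probes of the receptor genes had a sense frame without a stop codon, as did 82.6% of all probes. The letters AATAAA, which form a polyadenylation signal at many transcript ends, were in the Cd3e probe and the tested Cd8b1 probe, 2 of the 12, against 6.98% of all probes. In the RefSeq table (GRCm38.p6) Cd3g, Cd3d and Cd3e are consecutive genes on chromosome 9, and Cd8b1 and Cd8a are consecutive on chromosome 6.

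The arrays were checked before the comparison. Tnf had log2 ratios of -0.66, -0.63 and -0.84 in TB-TNF KO nodes, against 0.19, 0.36 and 0.49 in B-TNF KO nodes, a difference of -1.09 (SE 0.10, limma adjusted p = 0.0529). TB-TNF KO arrays 1 and 2 differed from each other by no more in the node channel than in the shared reference channel (ratio of SDs 0.95, 9 probes over 2-fold). The 14 other array pairs had ratios of 1.06 to 1.59 and 28 to 212 such probes. These arrays differed by less than the technical noise and were counted as 1 sample, so n was 2 TB-TNF KO samples against 3 B-TNF KO samples. TB-TNF KO array 1 is labelled male and array 2 female, yet the Y-linked gene Eif2s3y was at -2.81 and -2.84 on them and at 1.49 on array 3, against 0.59, 0.88 and 1.83 in B-TNF KO nodes, so the array labelled male goes against its label. A list of 20 exocrine pancreas genes, of which 14 were measured, had median log2 ratios of 4.42, 4.44 and 0.0039 on TB-TNF KO arrays 1 to 3, against 3.57, 4.16 and 0.06 on B-TNF KO arrays 1 to 3. This RNA moved with the replicate number and not with the genotype. Extraction of the scans fell on days that each held 1 genotype, so that day and genotype cannot be told apart.

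All 9 measured genes of the receptor complex were detected on every array, with both channels well above background and no saturated spot. Every measured T cell marker of the set was present in the node. All log2 ratios were above 0, from 0.40 at the tested Cd4 probe to 5.65 at the tested Cd8b1 probe. In intensity before normalisation, however, the tested Cd4 probe read lower in the node than in the reference on all 6 arrays. So did Cd3e on TB-TNF KO arrays 1 and 2 (2440 and 2227 against 3084 and 2837) and the tested Lat probe on TB-TNF KO array 2. The percentile of the mean log2 ratio among all genes tested was lowest for Cd4 at 86.33 and highest for Cd8b1 at 99.98. The median of the 9 genes was 2.24, 2.26 and 2.23 on TB-TNF KO arrays, against 2.17, 2.35 and 2.43 on B-TNF KO arrays. In whole nodes, fewer T cells and less RNA per T cell cannot be told apart, so each value describes the node and not the cell.

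**Figure D1:**
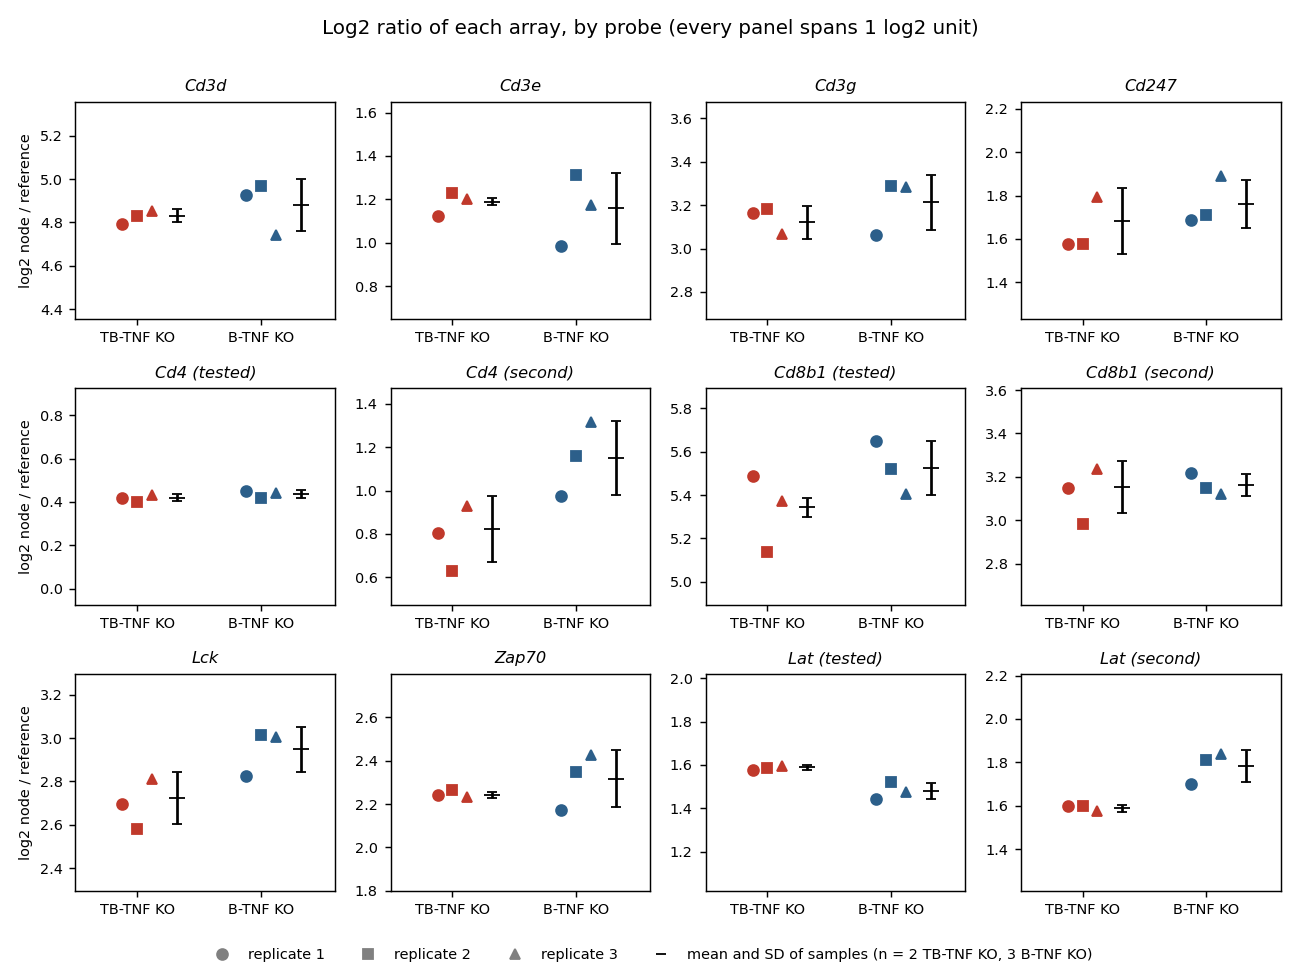
Log2 ratio of node over reference for each of the 12 probes on each array (vertical axes, every panel 1 log2 unit high), with TB-TNF KO arrays in red on the left and B-TNF KO arrays in blue on the right of each panel. Symbols mark the replicate number, and the black bars give mean and SD of samples, with TB-TNF KO arrays 1 and 2 averaged (n = 2 and n = 3). The groups separate for Lck, for both Lat probes and for the second Cd4 probe, and overlap for the other 8 probes. Of all genes tested, 17.1% lay fully below and 10.6% fully above in TB-TNF KO nodes.

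The TNF genotypes were then compared for every gene of the complex, the question being whether removing TNF from T cells as well as B cells goes with a different level of receptor transcripts in the node. None of the 9 genes passed the test (limma, Benjamini-Hochberg adjusted p under 0.05 over 37048 genes), where 0.0108% of all genes did. Unadjusted, 1 of the 9, Lck, had p under 0.05 in the lower direction and none in the higher, beside 11.3% and 5.04% of all genes. Differences of TB-TNF KO minus B-TNF KO nodes ran from -0.22 for Lck to 0.11 for Lat, with 7 genes below 0 and 2 above, and 55% of all genes also lay below 0. The 95% intervals of the 9 tested probes all lay inside a 1.5-fold change in either direction, and the lowest bound, that of Lck, corresponds to a 1.34-fold lower ratio. This does not hold for every probe, since the interval of the second Cd4 probe reached -0.61, past the log2 of 1.5 (0.58). It is also limited to the reported setting. With median centring the difference of Lck was -0.36 (SE 0.11), and intervals under the alternatives were not set against 1.5-fold.

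Of all 37048 genes, 4 fell in TB-TNF KO nodes and 0 rose. None passed without B-TNF KO array 2, B-TNF KO array 3 or TB-TNF KO array 3, without background subtraction or with the deposited series table. They were named after their values were seen and are Cxcl13, a B cell attracting chemokine (-1.56, SE 0.09, adjusted p = 0.0256), Lyve1, a lymphatic endothelial receptor (-1.22, SE 0.05, adjusted p = 0.00808), Prg4, which encodes lubricin (-0.71, SE 0.04, adjusted p = 0.0294) and 1 transcript without a symbol (-1.02, SE 0.06, adjusted p = 0.0256). None of those with a symbol belongs to the receptor pathway, and the transcript without one was not identified. With the 6 arrays counted separately, 1733 genes fell (4.68%) and 537 rose (1.45%), and with the replicate number as a block in that fit, 2401 fell and 682 rose. The receptor genes called stayed at 0 of 9 in both.

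Cd3d, Cd3e and Cd3g, which pair as epsilon-delta and epsilon-gamma dimers beside the receptor, overlapped between the genotypes. Cd3d had log2 ratios of 4.79, 4.83 and 4.85 in TB-TNF KO nodes, against 4.93, 4.97 and 4.74 in B-TNF KO nodes. The lowest of the 6 Cd3d values was B-TNF KO array 3, and the 3 TB-TNF KO arrays lay between it and the other B-TNF KO arrays. The means were 4.83 ± 0.03 (SD, n = 2) in TB-TNF KO and 4.88 ± 0.12 (SD, n = 3) in B-TNF KO nodes, a difference of -0.05 (SE 0.08, 95% interval -0.23 to 0.14, limma adjusted p = 0.822). Cd3d was lower by -0.14 within arrays 1 and 2 and higher by 0.11 within arrays 3, so its sign was not shared by the 2 sets of arrays.

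Cd3e, the chain shared by both dimers, had log2 ratios of 1.13, 1.23 and 1.20 in TB-TNF KO nodes, against 0.99, 1.31 and 1.17 in B-TNF KO nodes. The TB-TNF KO arrays sat inside the range of the B-TNF KO arrays. Its difference was 0.03 (SE 0.10, 95% interval -0.20 to 0.26, limma adjusted p = 0.91). It was 0.03 within arrays 1 and 2 and 0.03 within arrays 3, and its direction was not stable, being -0.08 with median centring in place of loess.

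Cd3g had log2 ratios of 3.17, 3.18 and 3.07 in TB-TNF KO nodes, against 3.06, 3.29 and 3.28 in B-TNF KO nodes. Array 3 was the lowest of its group in TB-TNF KO and array 1 in B-TNF KO, and the ranges overlapped. The difference was -0.09 (SE 0.08, 95% interval -0.29 to 0.11, limma adjusted p = 0.663), made up of -0.0022 within arrays 1 and 2 and -0.22 within arrays 3. Although Cd3d, Cd3e and Cd3g are neighbours on the chromosome, their 3 differences lay on both sides of 0 and none was larger than the SD of the B-TNF KO arrays.

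Cd247 encodes the zeta chain, which carries more ITAMs than the CD3 chains. Its log2 ratios were 1.57, 1.58 and 1.79 in TB-TNF KO nodes, against 1.69, 1.71 and 1.89 in B-TNF KO nodes. Array 3 was the highest of each group, and TB-TNF KO array 3 lay above B-TNF KO arrays 1 and 2. The difference was -0.08 (SE 0.09, 95% interval -0.30 to 0.14, limma adjusted p = 0.746), with -0.12 within arrays 1 and 2 and -0.10 within arrays 3. The Cd247 probe was dim, with node intensities of 112.5 to 162 in TB-TNF KO and 156 to 225 in B-TNF KO nodes and reference intensities of 42.1 to 48.0. With the deposited log ratio in place of the corrected intensities its difference was 0.05.

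Cd4, the coreceptor of helper T cells for MHC class II, was measured by 2 probes. The brighter one, used for the test, had log2 ratios of 0.42, 0.40 and 0.43 in TB-TNF KO nodes, against 0.45, 0.42 and 0.44 in B-TNF KO nodes. These values were nearly level across all 6 arrays. The SD was 0.02 in each genotype, and the difference of -0.02 (SE 0.04, 95% interval -0.12 to 0.08, limma adjusted p = 0.886) had the narrowest interval among the 9 genes. It was -0.20 in the node channel alone, -0.17 with the mean of both probes and -0.13 with median centring, all outside that interval. The reference was bright at this probe, at 4076 to 4425 in intensity, beside node intensities of 1814 to 2451 in TB-TNF KO and 2606 to 3646 in B-TNF KO nodes.

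The second Cd4 probe gave another picture. It had log2 ratios of 0.80, 0.63 and 0.93 in TB-TNF KO nodes, against 0.98, 1.16 and 1.32 in B-TNF KO nodes. Every TB-TNF KO array lay below every B-TNF KO array, as it did for 17.1% of all genes. The difference was -0.33 (SE 0.11, 95% interval -0.61 to -0.05, unadjusted p = 0.0273, limma adjusted p = 0.238). With the 6 arrays counted separately, TB-TNF KO arrays 1 and 2 then being 2 replicates, it was -0.36 (adjusted p = 0.0893), and adding the replicate number as a block to that fit gave an adjusted p of 0.0444. It was -0.056 with median centring, -0.083 with the deposited log ratio and -0.13 without background subtraction. It was -0.35 within arrays 1 and 2 and -0.39 within arrays 3. The probe was dim, with node intensities of 41.7 to 57.6 in TB-TNF KO and 81.9 to 136 in B-TNF KO nodes. The reference, the same RNA on all arrays, also read lower beside TB-TNF KO nodes, at 24.8 to 29.2, than beside B-TNF KO nodes, at 34.6 to 43.5. How much of the difference came from dim signal was not tested.

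Cd8b1, the beta chain of the coreceptor for MHC class I, was also read by 2 probes. The tested one had log2 ratios of 5.49, 5.14 and 5.37 in TB-TNF KO nodes, against 5.65, 5.52 and 5.40 in B-TNF KO nodes. TB-TNF KO array 2 was lowest, while TB-TNF KO array 1 exceeded B-TNF KO array 3. The difference was -0.18 (SE 0.08, 95% interval -0.37 to 0.01, unadjusted p = 0.0574, limma adjusted p = 0.325). It was -0.27 within arrays 1 and 2 but -0.03 within arrays 3, and it was -0.01 in the node channel alone.

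The second Cd8b1 probe had log2 ratios of 3.15, 2.98 and 3.24 in TB-TNF KO nodes, against 3.22, 3.15 and 3.12 in B-TNF KO nodes. The ranges overlapped, with the highest and the lowest value both in TB-TNF KO. Its difference was -0.01 (SE 0.07, 95% interval -0.17 to 0.15, limma adjusted p = 0.961). In the node channel alone it was 0.27, while the reference channel differed by 0.10.

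Lck, the kinase that starts the cascade by phosphorylating ITAMs, had the smallest p of the set. Its log2 ratios were 2.70, 2.58 and 2.81 in TB-TNF KO nodes, against 2.83, 3.01 and 3.00 in B-TNF KO nodes. All 3 TB-TNF KO arrays lay below all 3 B-TNF KO arrays, as for 17.1% of all genes. TB-TNF KO array 3 was just under B-TNF KO array 1. The means were 2.72 ± 0.12 (SD, n = 2) in TB-TNF KO and 2.95 ± 0.11 (SD, n = 3) in B-TNF KO nodes. The difference of -0.22 (SE 0.08, 95% interval -0.42 to -0.02) had an unadjusted p of 0.0336 and a limma adjusted p of 0.256, so it did not pass. It was -0.28 within arrays 1 and 2 and -0.19 within arrays 3. Taken channel by channel, after quantile scaling, the node signal of Lck differed by -0.03 and the reference signal by 0.09. Over the 20 alternative settings the difference of Lck stayed below 0, from -0.36 to -0.03, and its adjusted p ran from 0.0834 to 0.862. The tested probes of Cd3d, Cd4, Cd8b1 and Zap70 also stayed below 0 in all of these settings.

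Zap70, the kinase that binds phosphorylated ITAMs, had log2 ratios of 2.24, 2.26 and 2.23 in TB-TNF KO nodes, against 2.17, 2.35 and 2.43 in B-TNF KO nodes. The TB-TNF KO arrays spanned a range inside that of the B-TNF KO arrays. The difference was -0.07 (SE 0.08, 95% interval -0.27 to 0.12, limma adjusted p = 0.727), with -0.01 within arrays 1 and 2 and -0.19 within arrays 3.

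Lat, the scaffold that Zap70 phosphorylates, was read by 2 probes whose values parted in opposite directions. The brighter, tested probe had log2 ratios of 1.58, 1.59 and 1.60 in TB-TNF KO nodes, against 1.44, 1.52 and 1.48 in B-TNF KO nodes. All TB-TNF KO arrays lay above all B-TNF KO arrays, as for 10.6% of all genes. The difference was 0.11 (SE 0.04, 95% interval -0.0010 to 0.22, unadjusted p = 0.0516, limma adjusted p = 0.309).

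The second Lat probe, whose sequence with the tyrosine codon is printed above, had log2 ratios of 1.60, 1.60 and 1.58 in TB-TNF KO nodes, against 1.70, 1.81 and 1.84 in B-TNF KO nodes. Here all TB-TNF KO arrays lay below all B-TNF KO arrays, as for 17.1% of all genes. The difference was -0.20 (SE 0.06, 95% interval -0.33 to -0.06, unadjusted p = 0.0124, limma adjusted p = 0.167). Both directions held within arrays 1 and 2 (0.10 and -0.16) and within arrays 3 (0.12 and -0.26). The tested probe had node intensities of 10284.5 to 13914 in TB-TNF KO and 12889.8 to 18156 in B-TNF KO nodes, and 45% GC. The second had 761 to 1013 in TB-TNF KO and 1144 to 1789 in B-TNF KO nodes, and 58.3% GC. Which transcripts each probe reads was not tested. With the mean of both probes the difference of Lat was -0.04, and with median centring -0.07 for the tested probe.

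In a comparison added after the values were seen, the gap between the 2 probes of a gene was compared directly, as tested minus second probe on each array. For Lat it was -0.02, -0.01 and 0.02 in TB-TNF KO nodes, against -0.26, -0.29 and -0.36 in B-TNF KO nodes. For Cd4 it was -0.38, -0.23 and -0.50 in TB-TNF KO nodes, against -0.52, -0.74 and -0.88 in B-TNF KO nodes. The gaps of Lat and Cd4 did not overlap between genotypes on the 6 arrays. For Lat this follows from the opposite separations of its 2 probes given above and is no further result. For Cd4 it largely repeats the second probe, since the tested probe was nearly level. How often such gaps separate over all genes with 2 probes was not counted. The gaps of Cd8b1 overlapped by array but not once TB-TNF KO arrays 1 and 2 were averaged. The 3 genes gave mean differences of 0.30, 0.31 and -0.17 in the order Lat, Cd4 and Cd8b1. Each had p = 0.2 in a two-sided exact permutation test over 2 against 3 samples, in which the smaller tail is doubled. That p is the smallest this form of the test can give with these samples, so it cannot fall under 0.05. It stays at 0.2 after Benjamini-Hochberg adjustment over the 3 genes.

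**Figure D2:**
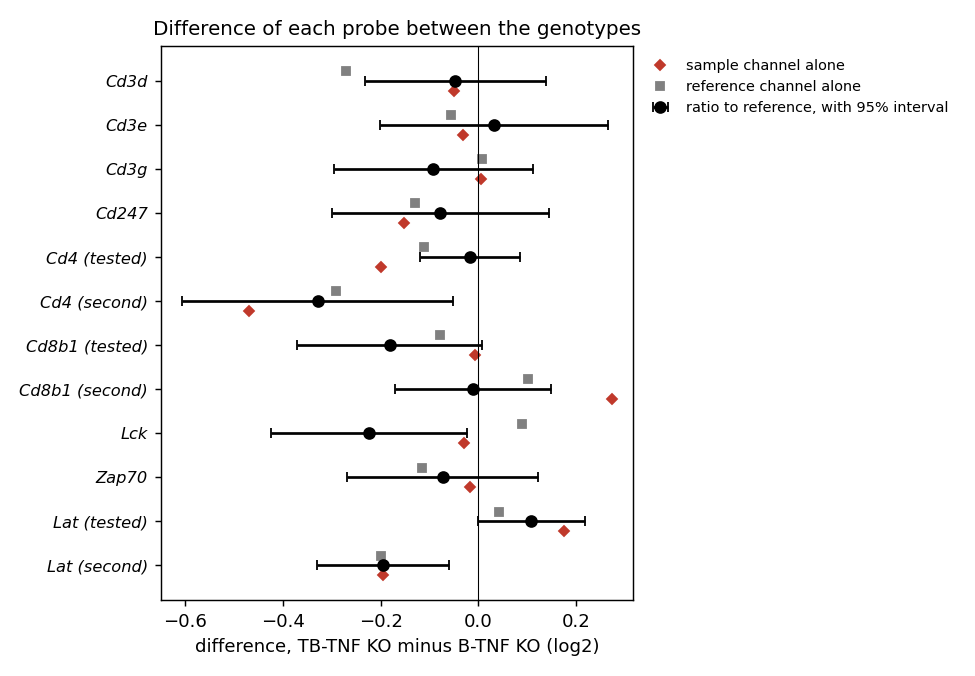
Difference of TB-TNF KO minus B-TNF KO nodes on the log2 scale (horizontal axis) for each of the 12 probes (vertical axis). Black circles with bars are the difference in node over reference ratio with its 95% interval, red diamonds the node channel alone and grey squares the reference channel alone; the 2 Lat probes lie at 0.11 and -0.20, and Lck is at -0.22 as a ratio but -0.03 in the node channel.

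Whether the set shifted as a block was not tested, and the counts by array are given as a description. Of the 9 genes, 2, 3 and 5 exceeded their own mean over arrays on TB-TNF KO arrays 1 to 3, against 4, 7 and 6 on B-TNF KO arrays 1 to 3. The SD of B-TNF KO arrays per gene ran from 0.02 to 0.16. The SE of the differences, which draws on both genotypes, ran from 0.04 for Cd4 to 0.10 for Cd3e. The median difference of the 9 genes was -0.07, beside -0.01 over all genes tested, and it was between -0.12 and -0.02 under all 20 alternatives.

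Genes that work with the receptor were set beside it in 5 lists, of which 61 of 87 genes were measured. None of the 61 passed the test. Unadjusted, 18 were lower and 3 higher at p under 0.05, 34.4% of the list beside 16.4% of all genes. In TB-TNF KO nodes 22 lay fully below and 4 fully above, beside 17.1% and 10.6% of all genes. Every listed gene has a symbol, while all genes here are the 37048 tested, of which 12235 had one. The shares among genes with a symbol alone were not counted. The share at p under 0.05 was 35.7% for B cell markers, 41.7% for macrophage and dendritic cell markers and 30.0% for NK and cytotoxic markers. For immature thymocyte and T cell line genes it was 50%, with 1 lower and 3 higher. For exocrine pancreas and adipocyte genes it was 0%. The median difference of the 61 was -0.09. With the 6 arrays counted separately, 5 of them fell and 0 rose: Icos, Ubash3b, Dok1, Fyb and Egr2. In that fit 4.68% of all genes fell and 1.45% rose, and 3 of 14 B cell markers and 2 of 12 macrophage and dendritic cell markers fell.

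In the list of receptor chains and costimulators none of the chains was measured, and the 8 of 14 genes that were, costimulators and related surface receptors, all had values below 0, with a median of -0.14. In the node channel alone that median was -0.019. Icos, a costimulator of activated and follicular helper T cells, had log2 ratios of 0.62, 0.56 and 0.78 in TB-TNF KO nodes, against 1.07, 1.01 and 1.13 in B-TNF KO nodes. The groups did not overlap (-0.39, SE 0.07, limma adjusted p = 0.0755). Cd6, a surface receptor that binds ALCAM, differed by -0.36 (adjusted p = 0.277). Cd5, which dampens receptor signalling, differed by -0.17 (adjusted p = 0.177), but its second probe differed by 0.31.

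Among proximal kinases, phosphatases and their regulators, 11 of 13 measured genes had values below 0 and 2 above, with a median of -0.14. Txk, a Tec family kinase of T cells, differed by -0.32 (adjusted p = 0.109), with -0.094 and -0.15 at its other probes. Ubash3b, a phosphatase that restrains Zap70, differed by -0.20 (adjusted p = 0.0890), and Dok1, an inhibitory adaptor, by -0.26 (adjusted p = 0.124). The arrays of all 3 genes were separated, with TB-TNF KO below, as were 6 of the 13 in the list and 17.1% of all genes.

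The adaptors and effectors that assemble on Lat were balanced, with 7 below 0 and 6 above among 13 measured of 20 and a median of -0.05. Fyb is an adaptor that links the receptor to integrin adhesion. Its log2 ratios were 1.13, 1.00 and 1.16 in TB-TNF KO nodes, against 1.54, 1.48 and 1.60 in B-TNF KO nodes (-0.43, SE 0.06, limma adjusted p = 0.0529). Vav1, an exchange factor for Rac, differed by -0.13 (adjusted p = 0.261) and Lcp2, the adaptor SLP-76, by -0.10 (adjusted p = 0.457), with -0.34 at its second probe.

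Distal kinases and transcription factors had 7 values below 0 and 5 above among 12 measured of 17, with a median of -0.08. Egr2, a transcription factor induced by receptor signalling, differed by -0.26 (adjusted p = 0.131), and Prkcq, the T cell protein kinase C, by -0.23 (adjusted p = 0.181). Genes of T cell identity had 10 values below 0 and 5 above among 15 measured of 18, with a median of -0.10. S1pr1, which lets T cells leave the node, differed by -0.36 (adjusted p = 0.193), Ccr7, which brings them in, by -0.22 (adjusted p = 0.183) and Gata3 by 0.17 (adjusted p = 0.198).

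Other cell types of the node had median differences near those of the T cell lists, and their part in the values above was not tested. B cell markers had a median of -0.09 over 14 of 16 genes, and per array a median log2 ratio of 1.66, 1.63 and 2.04 in TB-TNF KO nodes, against 1.75, 1.82 and 1.93 in B-TNF KO nodes. Blk, a Src family kinase of B cells, differed by -0.51 (adjusted p = 0.0712), with -0.087 at its second probe, and Cd79a, the B cell counterpart of a CD3 chain, by -0.42 (adjusted p = 0.0721), with -0.31 at its second probe. Fcrl1 differed by -0.38 (adjusted p = 0.0942). NK and cytotoxic markers had a median of -0.08 over 10 of 13 genes, led by Tbx21 (-0.39, adjusted p = 0.108), Ncr1 (-0.34) and Klrd1 (-0.16).

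Macrophage and dendritic cell markers had a median of -0.11 over 12 of 15 genes. Ccl22, a chemokine of dendritic cells, differed by -0.68 (adjusted p = 0.0863), Fscn1 by -0.41 (adjusted p = 0.0529) and Adgre1 by -0.41 (adjusted p = 0.0948). The second probes of Fscn1 and Adgre1 had smaller differences of -0.18 and -0.077. Immature thymocyte and T cell line genes had a median of 0.07 over all 8, with Ly6d at 0.27, Notch1 at 0.25 and Cd1d1 at -0.37. Exocrine pancreas genes had a median of -0.24 over 14 of 20, with none at unadjusted p under 0.05. That median had no stable sign, at 1.93 without TB-TNF KO array 3 and -1.59 without B-TNF KO array 3. Cela2a differed by -1.14, Prss2 by -0.88 and Ctrl by 0.30. Adipocyte genes had a median of -0.03 over 7 of 8, with Lpl at -0.38 (second probe -0.18), Adipoq at -0.11 and Cfd at 0.06. None of the genes in these 6 lists passed the test.

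**Figure D3:**
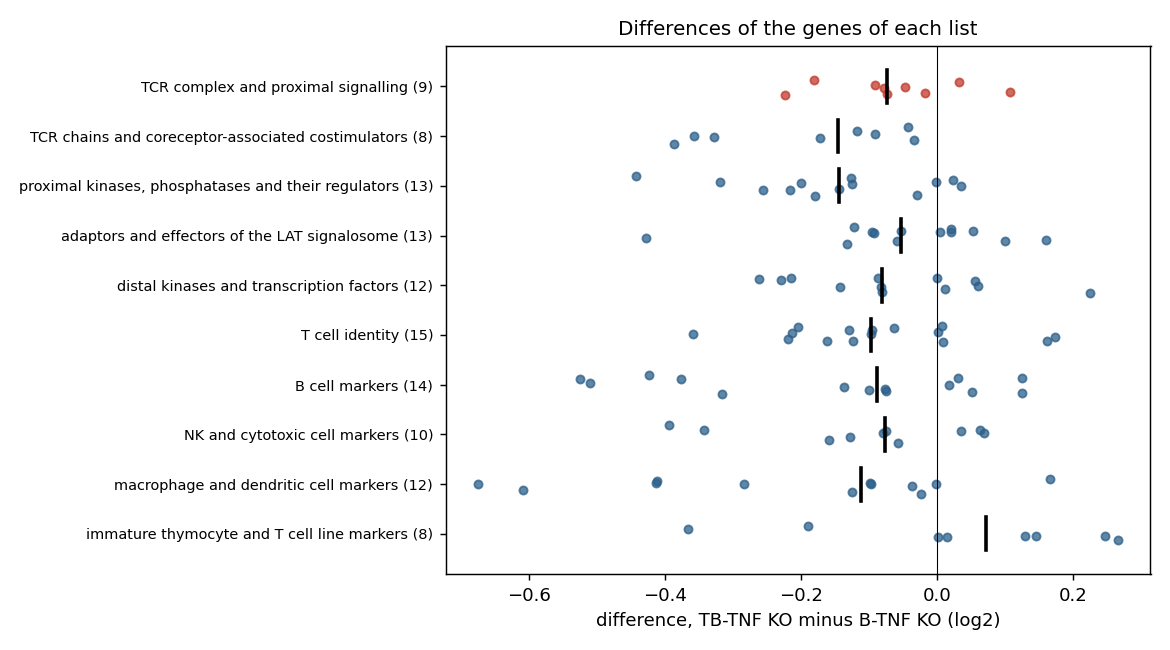
Difference of TB-TNF KO minus B-TNF KO nodes on the log2 scale (horizontal axis) for each measured gene (dots) of 10 gene lists (vertical axis, number measured in parentheses), with black bars at the list medians. The receptor genes in red lie between -0.22 and 0.11, with a median of -0.07.

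**Figure D4:**
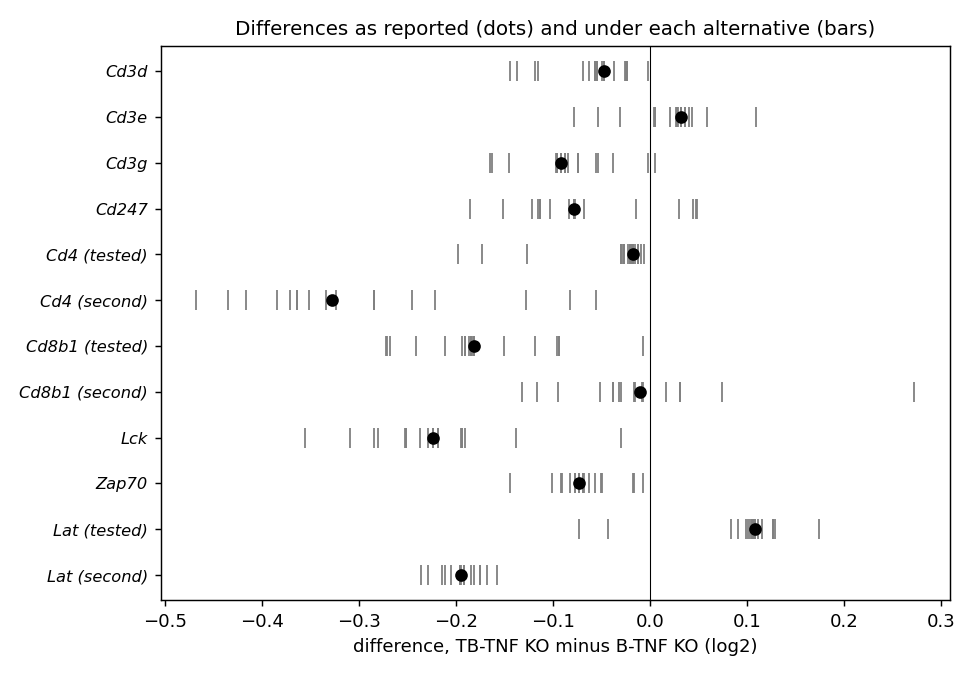
Difference of TB-TNF KO minus B-TNF KO nodes on the log2 scale (horizontal axis) for each of the 12 probes (vertical axis), as reported (dots) and under each alternative setting (bars). Bars of Cd3e, Cd3g, Cd247, the second Cd8b1 probe and the tested Lat probe lie on both sides of 0. All bars of Cd3d, both Cd4 probes, the tested Cd8b1 probe, Lck, Zap70 and the second Lat probe stay below 0, those of Cd3d up to -0.0020.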

How the data were processed

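RNA of mesenteric lymph nodes was measured on 6 two-colour Agilent arrays, 3 for each genotype. The scans had been read in Agilent Feature Extraction A.7.5.1 and background was subtracted locally, per the file headers. The deposited scanner files give the intensity of each spot and of its surroundings in both channels. They also hold a deposited log10 ratio of reference over sample, opposite in sign to the log2 ratios used here. The deposited series table holds log10 values without a stated scaling or centring, with column medians of 2.98 to 2.99, and they followed the processed Cy3 signal (r = 0.993 to 0.996 across probes). The genome build is not given in the sources used here, and no coordinate is printed.

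Mean intensities were corrected with normexp (offset 50) and loess (span 0.3), using limma 3.58.1 under R 4.3.3. Spots of control probes, weighted 0 in the loess curve, were dropped afterwards together with 228 outlier spots. Of 41034 spots, 15303 received a symbol through their accession in the RefSeq table (GRCm38.p6). Probes well above background in the node channel on at least 3 arrays were kept (40791), each gene was represented by its brightest probe, and lmFit and eBayes with Benjamini-Hochberg adjustment compared the genotypes. The arrays' median node intensity was 144 to 166 in TB-TNF KO and 159 to 203 in B-TNF KO samples. Precision is limited by how few arrays there are. The fit was tested on simulated data. Beside the receptor genes, every gene past the threshold and up to 3 genes with the smallest unadjusted p were named from each list, except 1 gene that is not reported here. The members and lists were chosen with earlier results of these data known. Same-numbered samples deviated together across genes (r = 0.142, 0.518 and 0.62 for numbers 1 to 3), although TB-TNF KO array 1 followed B-TNF KO array 2 more closely (r = 0.412) than array 1. Replicate numbers were taken as pairs by the rule that each r exceeded 0.1, and the block was fitted as an alternative. TB-TNF KO array 2 with B-TNF KO array 1 also exceeded 0.1 (r = 0.101). The rule therefore cannot tell how numbers 1 and 2 pair, and TB-TNF KO arrays 1 and 2 were counted as 1 sample elsewhere. The alternatives left out arrays, changed the background step, the centring, the channel, the filter and the choice of probe, removed probe GC content, used the deposited values or added the block. Separate mice were pooled for each sample, per the series' design text. Figures were drawn with matplotlib 3.10.9.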

Additional observations from a re-analysis of the deposited data

How the results depend on the processing

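No receptor gene passed the test under any of 20 alternatives, 18 of them planned and 2 chosen after seeing the data (arrays 3 of both groups left out, and TB-TNF KO array 2, labelled female, left out with arrays counted separately). The alternatives were not all separate checks. The last one is the same fit as the planned one without TB-TNF KO array 2, as no pair is then left to average. Changing the filter left the difference of every tested receptor probe as reported. The number of genes lower in TB-TNF KO nodes, 4 as reported, was 1733 with the 6 arrays counted separately, 2401 with the replicate block added to that, 310 in the sample channel alone, 2 with the mean of all probes, 1 with the deposited log ratio, and 0 without background subtraction, with the deposited series table, without TB-TNF KO arrays 1 and 2, and without arrays 3 of both groups. It was 0 to 4 when leaving out 1 array at a time, with 2 without TB-TNF KO array 2 and 0 without B-TNF KO array 2, B-TNF KO array 3 or TB-TNF KO array 3. The number higher, 0 as reported, was 537 with the 6 arrays counted separately, 235 in the sample channel alone and 682 with the replicate block. The block was fitted only with the 6 arrays counted separately. It changed the call of no receptor gene, and the second Cd4 probe had an adjusted p of 0.0893 without it and 0.0444 with it (-0.36 in both; over the 17 alternatives that gave this probe a value, the difference ran from -0.47 to -0.056 and adjusted p from 0.0444 to 0.893).

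Signs turned only in values that had not passed. Cd4, -0.02 as reported, ran from -0.20 in the sample channel to -0.0064 without TB-TNF KO arrays 1 and 2. Cd3e, 0.03 as reported, was -0.078 with median centring and -0.031 in the sample channel, and -0.054 to 0.11 when leaving out 1 array. Cd3g, -0.09 as reported, was 0.0052 in the sample channel. Cd247, -0.08 as reported, was 0.044 with median centring, 0.048 with the deposited log ratio, 0.048 with the deposited series table and 0.030 without TB-TNF KO arrays 1 and 2. Lat, 0.11 as reported, was -0.073 with median centring and -0.043 with the mean of its probes. The second Cd8b1 probe, -0.01 as reported, was 0.27 in the sample channel, 0.074 without TB-TNF KO arrays 1 and 2, and -0.095 to 0.031 when leaving out 1 array. The median log2 ratio of the 9 genes over the reference, 2.29 as reported, was 1.48 without background subtraction, 2.11 with median centring and 2.70 with the deposited log ratio.

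List medians also moved. Proximal kinases had -0.23 with median centring and -0.086 in the sample channel. Distal kinases and transcription factors had -0.14 with median centring, -0.0011 with the mean of all probes and -0.11 to -0.044 when leaving out 1 array. T cell identity had -0.029 in the sample channel. NK and cytotoxic markers had -0.0039 in the sample channel and -0.14 with the mean of all probes. Macrophage and dendritic cell markers had -0.23 with median centring. Medians ran from -0.10 to 0.047 for adaptors and effectors on Lat, -0.20 to -0.019 for costimulators, -0.25 to 0.074 for adipocyte genes and -2.54 to 1.93 for exocrine pancreas genes. The causes were not tested. The slide or scan day as a block was not run, since each slide held 1 array and each day 1 genotype. Signal limits the dim Cd247 and second Cd4 probes, and 2 against 3 samples limit all values.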
